A study of Mus musculus with 19 samples.

Results

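Metallothioneins and zinc transporters set how much free zinc a cell holds. Described here are 8 such genes of the 55487 listed in crypt RNA of mice, taken by name, with earlier results of these data known. They are the metallothioneins Mt1 and Mt2, the zinc-sensing transcription factor gene Mtf1, the exporters Slc30a1 and Slc30a10, and the importers Slc39a4, Slc39a5 and Slc39a14. All 8 passed the filter on low counts. Crypts of the small intestine, where stem, Paneth and dividing progenitor cells sit, came from adult C57BL/6 mice of both sexes, with 1 RNA library per mouse and 19 mice in all. Of these, 5 Nt+/+ mice (wild type for the gene of the gut hormone neurotensin) and 4 Nt-/- mice (homozygous for its knockout) had standard chow ad libitum, and 5 Nt+/+ and 5 Nt-/- mice were fasted for 48 h with water only. The fed controls were matched to the fasted mice for sex and age. Whole crypts were sequenced, so that fewer cells of a type and less RNA per cell cannot be told apart.

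Metallothioneins are small cysteine-rich proteins that bind zinc and copper. When zinc in the cell rises, MTF1 binds short sequences named metal response elements and turns on the metallothionein genes and Slc30a1, and metallothionein genes are also known targets of glucocorticoids. SLC30 proteins (ZnT) move zinc out of the cytosol and SLC39 proteins (ZIP) move it in, and in the intestine ZIP4, the product of Slc39a4, takes up dietary zinc at the brush border.

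Mt1 (ENSMUSG00000031765) and Mt2 (ENSMUSG00000031762) are neighbours on the plus strand of GRCm38, at chr8:94179082-94180327 and chr8:94172664-94173568, with 5513 bases from the end of Mt2 to the start of Mt1. Their promoters are shown because they belong to the members with the largest changes, and that of Slc30a10 because the stretch searched held as many element cores as that of Mt1. Each run is plus-strand sequence from RefSeq (GRCm38.p6) and ends 1 base before the RefSeq start of transcription, with the cores TGCACNC and TGCGCNC of the metal response element, on either strand, in capitals.
Mt2, chr8:94172368-94172617: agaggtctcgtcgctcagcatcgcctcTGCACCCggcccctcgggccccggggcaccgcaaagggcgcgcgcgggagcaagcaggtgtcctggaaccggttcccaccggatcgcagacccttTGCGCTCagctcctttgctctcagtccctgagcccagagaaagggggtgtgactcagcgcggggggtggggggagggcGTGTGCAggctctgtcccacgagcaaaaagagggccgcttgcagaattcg
Mt1, chr8:94178839-94179088: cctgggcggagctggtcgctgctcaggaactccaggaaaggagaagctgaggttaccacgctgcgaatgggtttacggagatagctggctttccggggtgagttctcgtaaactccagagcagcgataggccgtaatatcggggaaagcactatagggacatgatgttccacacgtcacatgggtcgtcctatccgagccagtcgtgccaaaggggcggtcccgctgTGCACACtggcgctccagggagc
Mt1, the 30 bases from the start on, chr8:94179089-94179118: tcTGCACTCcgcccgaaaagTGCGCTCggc
Slc30a10, chr1:185454598-185454847: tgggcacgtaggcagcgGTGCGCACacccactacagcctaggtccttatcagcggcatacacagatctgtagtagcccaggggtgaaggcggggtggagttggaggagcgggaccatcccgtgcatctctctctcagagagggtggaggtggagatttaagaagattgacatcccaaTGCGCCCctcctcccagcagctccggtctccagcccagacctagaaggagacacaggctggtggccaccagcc

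Windows of 300 bases, 250 before and 50 after the RefSeq start, were at hand for 6 of the 8 members. The Mt2 window held 4 cores, the Mt1 window 3, the Slc30a10 window 3 of which 2 overlap each other, and the Slc30a1 window 2. Of these, 1 core of Mt2, at base 5 counted from the RefSeq start, and 1 of Slc30a1, at base 31, lie after the start. The run of Mt2 shown ends before the start and leaves that core out. Slc39a5 has 2 windows, with 1 core and 0 cores, and the Mtf1 window held none of these letters. Over 27025 genes with a window of that length, 28.2% held 1 or more cores, 2.27% held 3 or more and 0.588% held 4 or more. In Mt1, 2 of the 3 cores lie just after the RefSeq start, at bases 3 and 21 counted from it. Whether crypts use that start was not tested. Cores beyond base 50 lie outside the window, so 3 is not a count for the whole Mt1 promoter. A match of 7 letters is a description of the sequence and was not tested for binding.

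The 19 libraries held between 9059457 and 35068711 counts (median, 18541819), and 2 of the fasted Nt-/- mice, replicates 2 and 4, were the shallowest. Nts, the deleted gene, had 4.98 to 8.59 CPM (counts scaled to the total of the library) in the Nt+/+ mice and 0.145 to 0.792 in the Nt-/- mice. The mouse titled Nt+/+ fasted replicate 5 carries Nt-/- in its genotype label; its Nts level was 5.43 CPM and it was kept as Nt+/+. Of the crypt markers, the 5 stem cell genes summed to between 1269 and 3299 CPM and the 7 Paneth cell genes to between 15730 and 39830 CPM, whereas the 8 stromal genes stayed between 7.60 and 14.8 CPM and the 9 immune genes between 63.2 and 148 CPM. The 9 enterocyte markers summed to between 3843 and 8629 CPM in fed mice and between 7650 and 18920 CPM in fasted mice.

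The first question was what a 48 h fast did to zinc handling in Nt+/+ crypts. Both metallothionein mRNAs rose, with every fasted mouse above every fed mouse. How often fed and fasted groups were apart in this way over all genes was not counted. Slc39a4 fell, Slc39a5 and Slc39a14 rose by a smaller amount, and Mtf1, Slc30a1 and Slc30a10 did not pass the test. In all, 5 of the 8 members were called at an adjusted p under 0.05 (edgeR's quasi-likelihood test over 17875 genes), 4 higher and 1 lower, beside 21.6% of all genes tested. The median log2 fold change was 0.46 over the 8 members and -0.01 over all genes. In Nt-/- crypts 7 of the 8 were called, 6 higher and 1 lower, beside 25.2% of all genes, with a median of 0.53 against -0.02.

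**Figure D1:**
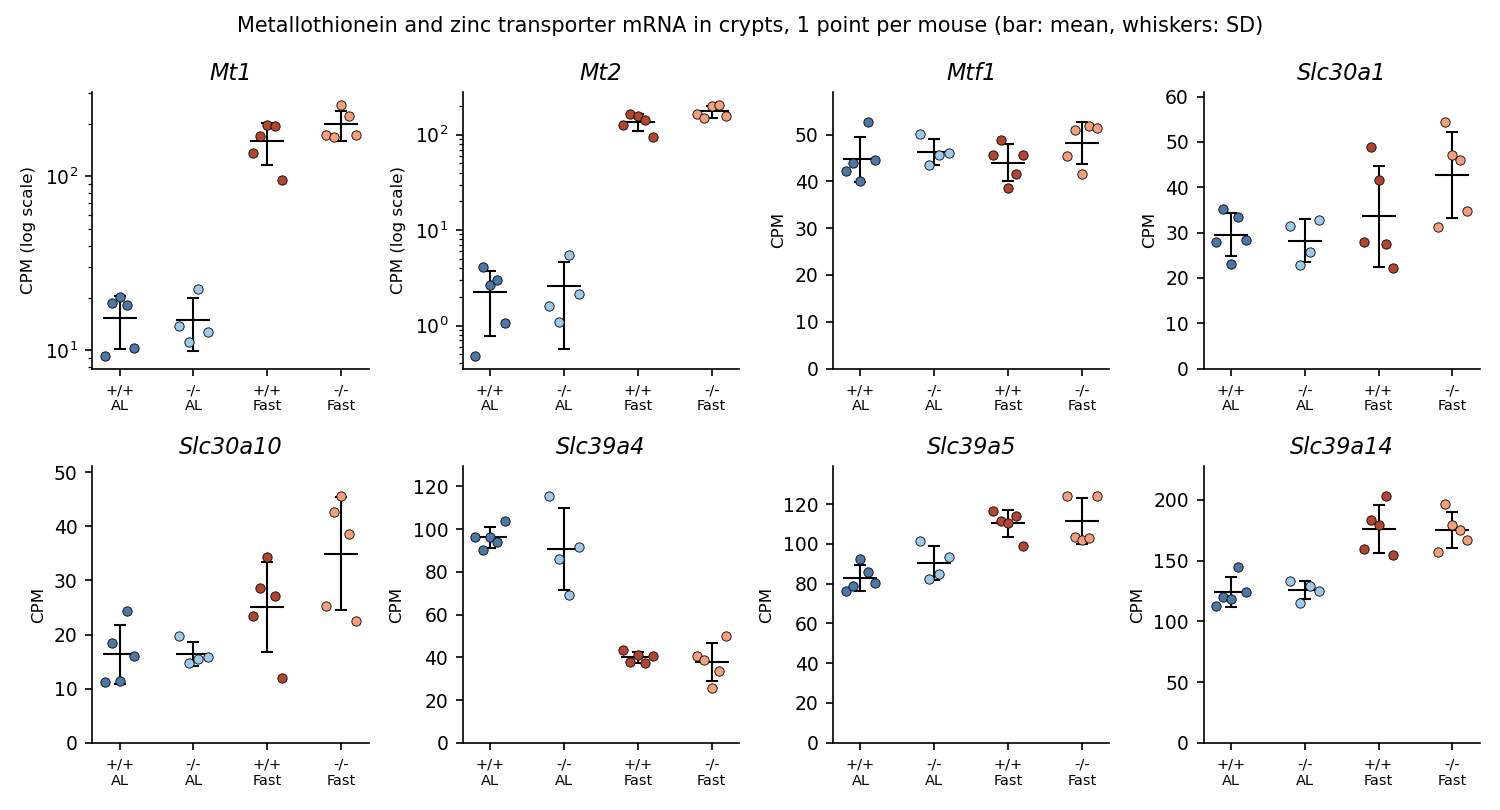
Level of each of the 8 members in CPM (vertical axis, log scale for Mt1 and Mt2, from 0 for the others) in the 4 groups (horizontal axis: genotype, and AL for ad libitum or Fast). Each point is 1 mouse, the bar the mean and the whiskers the SD. For Mt1, Mt2, Slc39a4, Slc39a5 and Slc39a14 no fasted mouse lies within the range of the fed mice of its genotype. The share of all genes with groups apart in this way was not obtained.

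Mt1 stood at 9.26, 18.6, 20.3, 18.2 and 10.3 CPM in the 5 fed Nt+/+ mice, and at 136, 172, 198, 194 and 95.9 CPM in the 5 fasted ones. The lowest fasted mouse, replicate 5, was thus well above the highest fed mouse. The means were 15.3 ± 5.15 CPM (SD, n = 5) and 159 ± 43.0 CPM (SD, n = 5), a ratio of 10.4 and a log2 fold change of 3.38 ± 0.25 (SE; adjusted p = 2.47e-08, edgeR).

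In Nt-/- crypts Mt1 was at 13.7, 11.1, 22.3 and 12.7 CPM in the 4 fed mice and at 173, 169, 259, 221 and 173 CPM in the 5 fasted mice. Again the groups did not overlap, and the ratio of the means was 13.3. The log2 fold change was 3.73 ± 0.28 (SE; adjusted p = 2.4e-08, edgeR).

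Mt2 changed more than Mt1. Fed Nt+/+ mice had 0.480, 4.09, 2.64, 2.99 and 1.06 CPM, which rest on 10, 92, 40, 59 and 22 counts, and fasted Nt+/+ mice had 128, 165, 156, 142 and 95.7 CPM. No fasted mouse came near the fed range. The ratio of the means was 61.0 and the log2 fold change 5.93 ± 0.39 (SE; adjusted p = 5.29e-09, edgeR), the 7th highest of 17875 genes tested, where Mt1 ranked 25th.

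In the 4 fed Nt-/- mice Mt2 was at 1.59, 1.08, 5.54 and 2.13 CPM, and in the 5 fasted ones at 163, 151, 200.3, 207 and 156 CPM. The rise was 67.9-fold between the means, with a log2 fold change of 6.10 ± 0.43 (SE; adjusted p = 9.9e-09, edgeR), and Mt2 ranked 8th and Mt1 24th. The low fed level limits the precision of these ratios: the 95% interval of the log2 fold change ran from 5.10 to 6.76 in Nt+/+ and from 5.19 to 7.01 in Nt-/- mice. Without fed Nt-/- replicate 3, which had 5.54 CPM, the log2 fold change in Nt-/- mice was 6.77.

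Because Mt1 and Mt2 are close paralogs, RSEM may divide reads between them. With their counts summed before the fit, the pair rose by 4.08 on the log2 scale in Nt+/+ and 4.42 in Nt-/- mice (adjusted p = 7.32e-09 and 8.8e-09, edgeR). Gm45774, an antisense gene that overlaps Mt2 on the opposite strand, held 0 to 2 counts in the fed mice and 9 to 129 in the fasted mice. The strand setting of the counting is not given in the sources used here, so reads of Mt2 and of its antisense partner cannot be told apart.

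**Figure D2:**
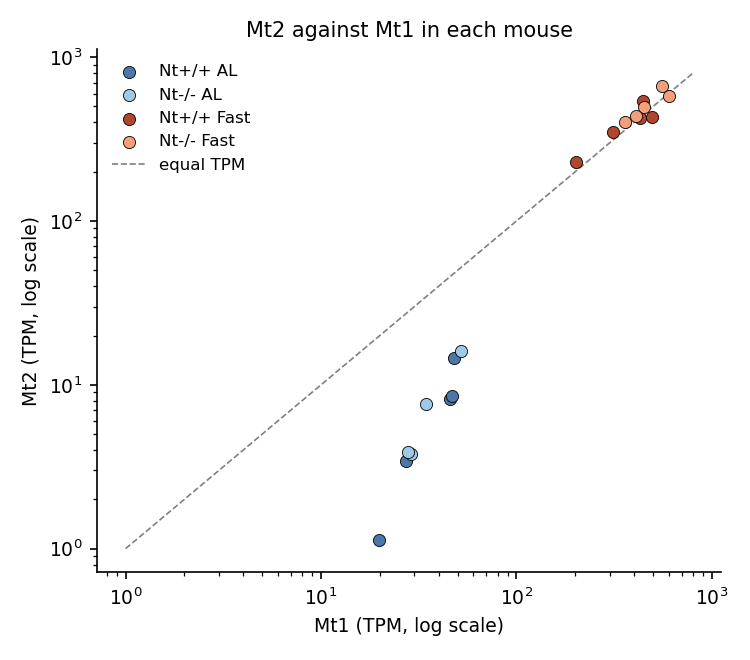
Mt2 against Mt1 in each mouse, both in TPM, a level scaled to transcript length, on log scales, with the 4 groups in colours and a dashed line where both have the same TPM. The fed mice lie below the line, with Mt2 at 5.38% to 23.5% of the pair, and the fasted mice on or close to it, at 46.7% to 54.7%.

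The makeup of the metallothionein mRNA shifted too. In TPM, which corrects for transcript length, Mt2 made up 14.1% ± 6.53 (SD, n = 5) of the sum of Mt1 and Mt2 in fed Nt+/+ mice and 51.4% ± 3.19 (SD, n = 5) in fasted ones. The corresponding shares in Nt-/- mice were 16.4% ± 5.63 (SD, n = 4) and 52.1% ± 1.94 (SD, n = 5). The log2 ratio of Mt2 to Mt1 TPM rose by 2.84 in Nt+/+ mice (2-sided exact permutation test, p = 0.00794) and by 2.53 in Nt-/- mice (exact permutation test, p = 0.0159), in both cases the smallest p these group sizes allow. This ratio was tested after its values had been seen. Between the genotypes it differed by 0.34 in fed mice (exact permutation test, p = 0.571) and by 0.04 in fasted mice (exact permutation test, p = 0.738).

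Mice with more Mt1 had more Mt2. Within the 9 fed mice, log2(CPM + 1) of the pair gave Pearson's r = 0.940 (permutation p = 0.000262, adjusted p = 0.00336 over 14 pairs of a member with Mt1) and Spearman's rho = 0.933 (permutation p = 0.00075, adjusted p = 0.0105), and r was 0.959 without the 2 mice farthest from the median of Mt1. Within the 10 fasted mice r was 0.930 (permutation p = 0.00048, adjusted p = 0.00336) but rho was 0.733 (permutation p = 0.0206, adjusted p = 0.144), and r without the 2 farthest mice was 0.762. Slc30a10 also followed Mt1 in fasted mice, with r = 0.873 (permutation p = 0.0019, adjusted p = 0.00887) and rho = 0.612 (permutation p = 0.0668, adjusted p = 0.312); r fell to 0.519 without the 2 farthest mice, so that this relation rests on them. The other 11 relations had adjusted p of 0.0958 or more. The permutations treat the mice of a diet as exchangeable, although mice of 1 sample set, as marked in the file names, deviated together. With the set means removed, r of Mt1 with Mt2 was 0.989 over 4 fed pairs and 0.924 over 5 fasted pairs, and r of Mt1 with Slc30a10 was 0.816 over the 5 fasted pairs. Each pair holds 1 mouse of each genotype, and these values are a description with no test.

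Mtf1 (ENSMUSG00000028890, chr4:124802104-124849800, plus strand), which encodes the sensor itself, did not pass the test in any comparison. Its range was 40.0 to 52.8 CPM in fed and 38.7 to 48.8 CPM in fasted Nt+/+ mice, and 43.5 to 50.1 CPM and 41.5 to 51.8 CPM in Nt-/- mice. All 4 ranges overlap. The log2 fold change with fasting was -0.02 (95% interval, -0.20 to 0.15; adjusted p = 0.874, edgeR) in Nt+/+ and 0.06 (95% interval, -0.13 to 0.25; adjusted p = 0.697) in Nt-/- mice. In TPM the mean of Mtf1 was higher after the fast, at 14.1 fed and 17.2 fasted in Nt+/+ mice. In Nt-/- mice it was 14.2 TPM (range, 13.03 to 15.39) fed and 19.95 TPM (range, 15.03 to 23.29) fasted. The TPM values of Mtf1 were not tested.

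Of the exporters, Slc30a1 (ENSMUSG00000037434, chr1:191906767-191913247, plus strand) encodes ZnT1, which moves zinc out across the plasma membrane. It was at 27.8, 35.1, 23.0, 33.5 and 28.3 CPM in fed and at 27.8, 48.9, 41.6, 27.4 and 22.2 CPM in fasted Nt+/+ mice. In Nt-/- mice it was at 31.4, 22.7, 25.7 and 32.8 CPM when fed and at 31.1, 54.5, 47.0, 46.1 and 34.7 CPM after the fast. The fed and fasted ranges overlap in both genotypes. The log2 fold change was 0.18 ± 0.19 (SE; adjusted p = 0.553, edgeR) in Nt+/+ and 0.59 ± 0.21 (SE; adjusted p = 0.0419) in Nt-/- mice.

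The call for Slc30a1 in Nt-/- mice is close to the threshold. With the sample set number of the file names as a block, which pairs the mice, it was 0.52 (adjusted p = 0.0597, edgeR). It was also lost with fasted Nt+/+ replicate 5 grouped by its genotype label (0.47; adjusted p = 0.125) and with both shallow fasted Nt-/- mice left out (0.42; adjusted p = 0.216). Leaving out fed Nt-/- replicate 1, 2 or 3 gave adjusted p of 0.0532, 0.127 and 0.108, and leaving out fasted Nt-/- replicate 2, 3 or 4 gave 0.104, 0.0846 and 0.075, with log2 fold changes between 0.49 and 0.65.

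Slc30a10 (ENSMUSG00000026614, chr1:185454848-185468762, plus strand) encodes a transporter known above all for the export of manganese. Fed Nt+/+ mice had 11.2, 18.5, 11.4, 24.4 and 16.1 CPM and fasted ones 23.4, 28.6, 34.4, 27.2 and 11.98 CPM, with 3 of the 5 fasted mice above every fed mouse and replicates 1 and 5 within the fed range. In Nt-/- mice the groups were apart, at 19.8, 14.8, 15.5 and 15.8 CPM when fed and 25.2, 42.7, 45.6, 38.6 and 22.5 CPM after the fast. Slc30a10 rose in Nt-/- mice by 1.07 ± 0.27 on the log2 scale (SE; adjusted p = 0.00691, edgeR), a ratio of means of 2.12. In Nt+/+ mice the log2 fold change was 0.62 ± 0.25 (SE; adjusted p = 0.0907), and it passed the threshold without fed replicate 4 (0.81; adjusted p = 0.0337) or fasted replicate 5 (0.80; adjusted p = 0.0162). Gm2061, a long noncoding RNA gene on the opposite strand that overlaps Slc30a10, did not pass the test in either genotype, at -0.31 (adjusted p = 0.497) and 0.74 (adjusted p = 0.0937). As with Mt2 and Gm45774, reads of these overlapping genes cannot be told apart without the strand setting.

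Of the importers, Slc39a4 (ENSMUSG00000063354, chr15:76612383-76617384, minus strand), mutated in the human zinc deficiency acrodermatitis enteropathica, was the 1 member that fell. It was at 96.2, 90.2, 96.5, 94.0 and 104 CPM in fed Nt+/+ mice and at 43.6, 37.8, 41.2, 37.5 and 40.4 CPM in fasted ones. In Nt-/- mice it was at 116, 86.3, 69.2 and 91.5 CPM when fed and at 40.8, 38.9, 25.7, 33.7 and 49.8 CPM after the fast. Every fasted mouse was below every fed mouse of either genotype. Slc39a4 fell by 1.26 on the log2 scale in Nt+/+ mice (SE 0.14; adjusted p = 2.91e-06, edgeR) and by 1.26 in Nt-/- mice (SE 0.14; adjusted p = 4.23e-06), in each case a level 2.40-fold lower in the means. It ranked 159th from the bottom of 17875 genes in Nt+/+ and 253rd in Nt-/- mice.

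Slc39a5 (ENSMUSG00000039878, chr10:128395931-128401229, minus strand) encodes ZIP5, a zinc importer of the basolateral side of enterocytes. It was at 76.4 to 92.6 CPM in fed and 98.9 to 117 CPM in fasted Nt+/+ mice, and at 82.5 to 101 CPM and 102 to 124 CPM in Nt-/- mice. The ranges did not overlap, although in Nt-/- mice the highest fed mouse, at 101.4 CPM, lay just under the lowest fasted mouse, at 102.1 CPM. The rise was 0.41 ± 0.08 on the log2 scale in Nt+/+ mice (SE; adjusted p = 0.00104, edgeR) and 0.30 ± 0.08 in Nt-/- mice (SE; adjusted p = 0.0131). The second of these missed the threshold without fed Nt-/- replicate 2 (0.26; adjusted p = 0.0553) or replicate 3 (0.27; adjusted p = 0.0501).

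Slc39a14 (ENSMUSG00000022094, chr14:70303469-70351425, minus strand) encodes ZIP14, which carries zinc, iron and manganese. Its 5 fed Nt+/+ mice ranged from 112 to 145 CPM and the 5 fasted ones from 154 to 203 CPM, and in Nt-/- mice the ranges were 115 to 133 CPM and 157 to 196 CPM. Fasted mice were above fed mice throughout. The log2 fold change was 0.51 ± 0.08 in Nt+/+ mice (SE; adjusted p = 0.000303, edgeR) and 0.48 ± 0.09 in Nt-/- mice (SE; adjusted p = 0.000749), ratios of the means of 1.42 and 1.39.

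**Figure D3:**
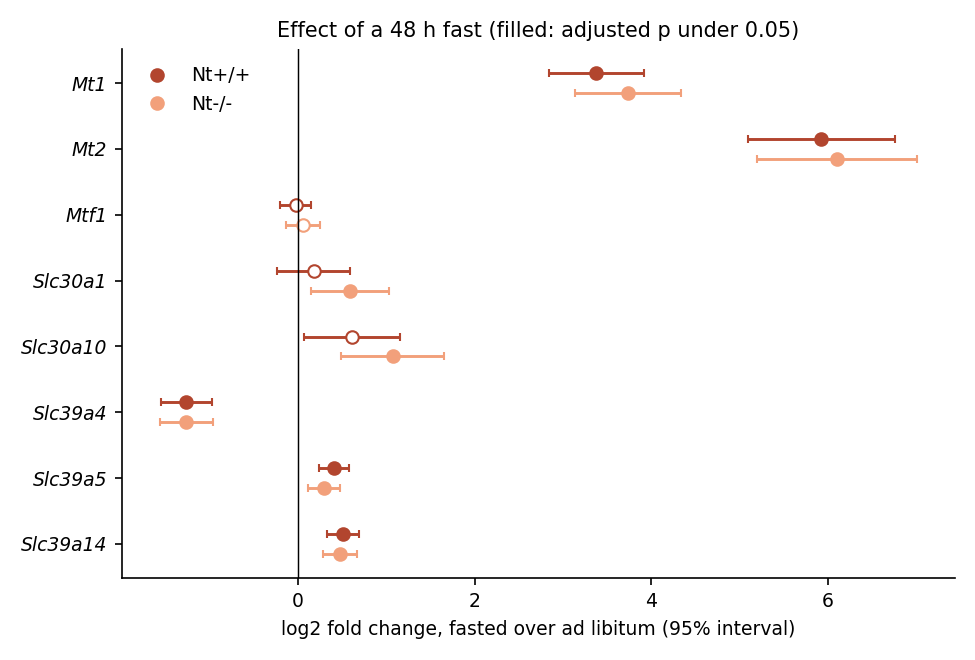
Log2 fold change of each member after a 48 h fast (horizontal axis; 0 is no change) in Nt+/+ and Nt-/- mice, with approximate 95% intervals built from the edgeR fit and filled points where the adjusted p was under 0.05. Mt2 and Mt1 stand at 5.93 and 3.38 in Nt+/+ mice, Slc39a4 at -1.26, and the remaining members between -0.02 and 1.07 in both genotypes.

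Per transcript length, Mt1 and Mt2 moved to the top of the order with the fast and Slc39a4 moved down, while Slc39a5, Slc39a14, Mtf1, Slc30a1 and Slc30a10 kept their order among themselves. In fed Nt+/+ crypts the importers led, with Slc39a5 at 65.3 ± 8.13 TPM (SD, n = 5), Slc39a4 at 55.8 ± 5.37 TPM, Slc39a14 at 43.8 ± 8.31 TPM and Mt1 at 37.5 ± 13.0 TPM, and the ranges of these neighbours overlapped. Mtf1 followed at 14.1 TPM, apart from Mt1 above it and Slc30a1 below it, although its range overlapped that of Mt2. Slc30a1, Mt2 and Slc30a10 came last at 7.39, 7.17 and 3.75 TPM with overlapping ranges. In fasted Nt+/+ crypts Mt2, at 394 ± 114 TPM (SD, n = 5), and Mt1, at 376 ± 117 TPM, stood first with overlapping ranges and apart from Slc39a5 at 83.0 TPM and Slc39a14 at 64.8 TPM. Slc39a4 had dropped to 21.4 TPM, beside Mtf1 at 17.2 TPM. In Nt-/- crypts the fasted order was the same, led by Mt2 at 516 ± 107 TPM and Mt1 at 476 ± 103 TPM (SD, n = 5).

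**Figure D4:**
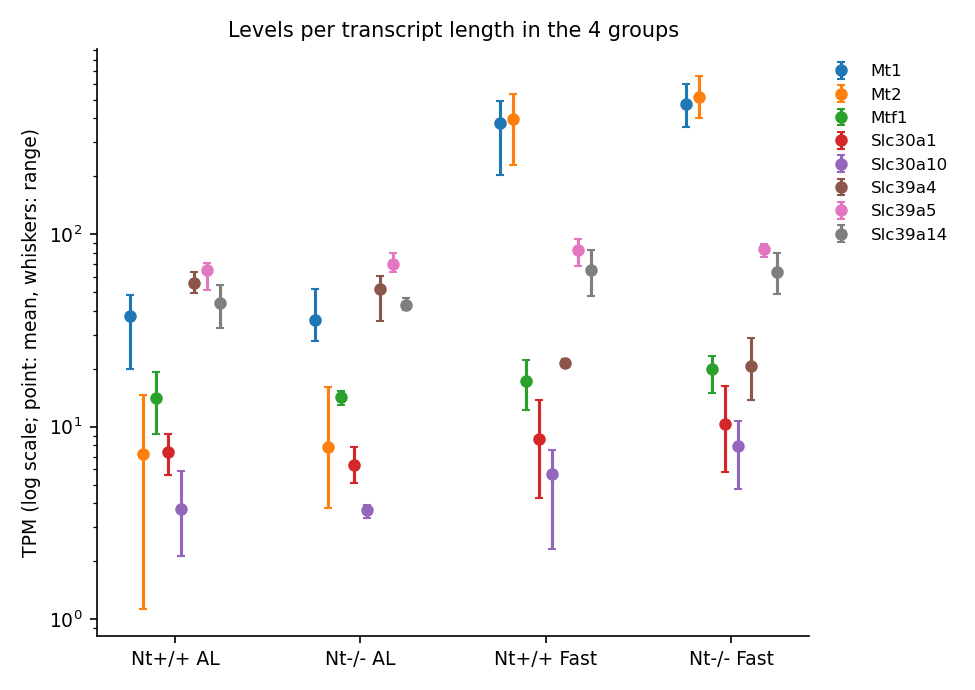
Level of each member in TPM (log scale) in the 4 groups, as the mean (point) and the range over the mice of the group (whiskers). In the fed groups Slc39a5 is highest, at 65.3 and 70.3 TPM, and in the fasted groups Mt2 and Mt1 lie between 203 and 664 TPM in all 10 mice.

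The second question was whether loss of neurotensin changed these genes. In fed mice 0 of the 8 members were called between the genotypes, beside 0.00559% of all genes, and 0 of the 8 had an unadjusted p under 0.05 (edgeR). DESeq2 also called 0 of the 8, beside 3 of 17875 genes. Log2 differences (Nt-/- minus Nt+/+) over the members ran from -0.08 to 0.18. Mt1 differed by -0.03 (95% interval, -0.59 to 0.52), Mt2 by 0.18 (-0.78 to 1.14), Slc30a1 by -0.07 (-0.51 to 0.37) and Slc30a10 by 0.01 (-0.56 to 0.59), all with an adjusted p of 1 in edgeR.

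In fasted mice 0 of the 8 members were again called by edgeR, beside 0.00559% of all genes, and 0 had an unadjusted p under 0.05. DESeq2 called 0 of the 8, beside 101 of 17875 genes. The means were higher in Nt-/- than in Nt+/+ mice for Mt1, Mt2, Slc30a1 and Slc30a10, with log2 differences of 0.32 (95% interval, -0.16 to 0.81), 0.35 (-0.27 to 0.97), 0.34 (-0.07 to 0.75) and 0.47 (-0.07 to 1.01) and adjusted p of 0.729, 0.776, 0.642 and 0.613 (edgeR). The genotypes overlapped for each of these genes. Within the 5 fasted pairs of the same sample set, Slc30a1 and Slc30a10 were higher in the Nt-/- mouse in 5 of 5 pairs. Mt1, Mt2 and Mtf1 were higher in 4 of 5, Slc39a14 in 3, and Slc39a4 and Slc39a5 in 2. The share of all genes with such counts was not obtained, so these counts are a description with no test. With the set as a replicate block the log2 difference was 0.35 for Slc30a1 (adjusted p = 0.398, edgeR) and 0.48 for Slc30a10 (adjusted p = 0.336, edgeR), and neither was called. The intervals do not show that the genotypes were alike: for Slc30a10 they leave room for a log2 difference of up to 1.01.

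Whether the fast acted differently in Nt-/- and Nt+/+ crypts was tested as an interaction, which was called for 0 of the 8 members by edgeR and by DESeq2, beside 0% of all genes, and no member had an unadjusted p under 0.05. It was 0.35 for Mt1 (95% interval, -0.38 to 1.09), 0.17 for Mt2 (-0.98 to 1.32), 0.41 for Slc30a1 (-0.19 to 1.01) and 0.46 for Slc30a10 (-0.33 to 1.25), all with an adjusted p of 1 (edgeR). The calls for Slc30a1 and Slc30a10 in Nt-/- mice alone are thus not shown to be particular to that genotype. The 18 mice with a sex label were 12 females and 6 males. Of the 8 members, 0 were called between the sexes by edgeR, beside 0.0783% of all genes, and 0 by DESeq2, beside 99 of 17875 genes. Log2 differences (male minus female) lay between -0.15 and -0.02. Each sample set held labelled mice of 1 sex only, so sex and set cannot be told apart fully.

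The rest of both transporter families was mixed. Of 8 other SLC30 genes 6 could be tested, and 2 rose and 2 fell in each genotype (median log2 fold change, -0.08 in Nt+/+ and 0.03 in Nt-/- mice). Slc30a2, whose product ZnT2 loads zinc into secretory vesicles, rose from a mean of 36.8 to 91.4 CPM in Nt+/+ mice, by 1.31 ± 0.15 on the log2 scale (SE; adjusted p = 6.22e-06, edgeR), and by 1.44 ± 0.16 in Nt-/- mice (adjusted p = 4.37e-06). Slc30a4 rose by 0.42 and 0.70 (adjusted p = 0.00257 and 3.74e-05), and Slc30a9 fell by 0.37 and 0.33 on the log2 scale (adjusted p = 0.000947 and 0.00317).

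Of 11 other SLC39 genes 10 could be tested. In Nt+/+ mice 2 rose and 2 fell, and in Nt-/- mice 1 rose and 2 fell (medians, -0.05 and -0.04). Slc39a10, which encodes the plasma membrane importer ZIP10, went down together with Slc39a4, by 1.23 ± 0.17 on the log2 scale in Nt+/+ mice (SE; adjusted p = 3.42e-05, edgeR) and by 1.32 ± 0.18 in Nt-/- mice (adjusted p = 2.37e-05). Slc39a6 rose by 0.51 and 0.49 (adjusted p = 0.0124 and 0.0184). Slc39a13 rose by 0.43 in Nt+/+ mice (adjusted p = 0.037), and Slc39a2 fell by 1.06 in Nt-/- mice (adjusted p = 0.0336). Mt3 and Mt4, the other metallothionein genes of the cluster on chromosome 8, were too low to test, with 0 to 10 and 0 to 3 counts per mouse.

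**Figure D5:**
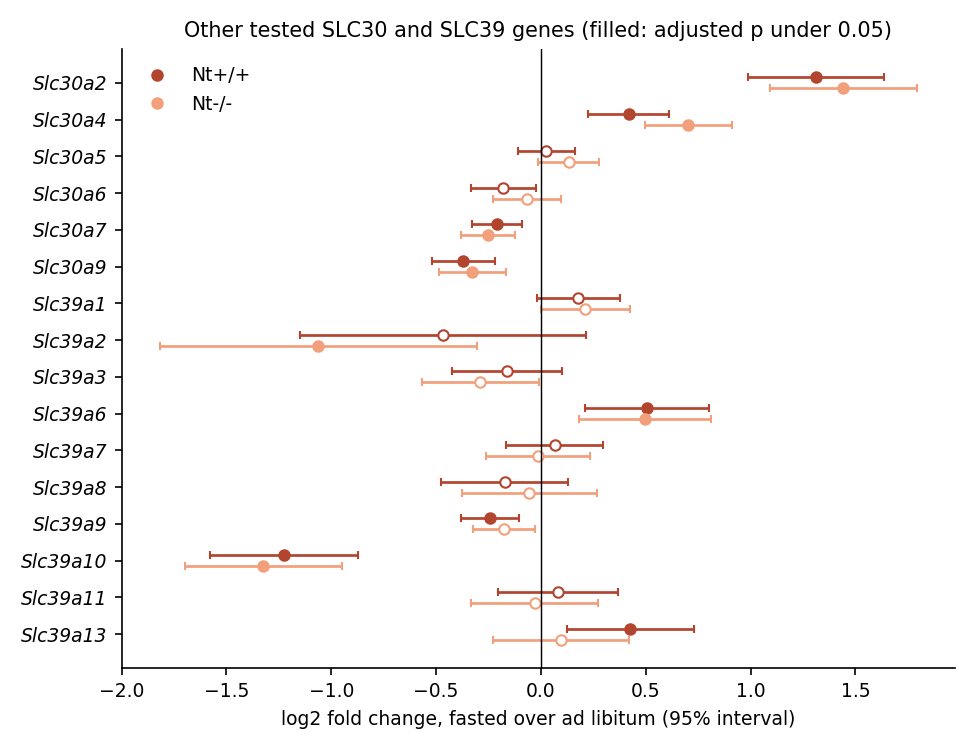
Log2 fold change after the fast (horizontal axis) with 95% intervals for the 16 other SLC30 and SLC39 genes tested, in Nt+/+ and Nt-/- mice; filled points had an adjusted p under 0.05 in edgeR. Slc30a2 is highest at 1.31 and 1.44, and Slc39a10 lowest at -1.23 and -1.32.

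Other genes known to respond to MTF1 or to metals did not move as 1 group. Of 8 listed, 7 were tested, and in each genotype 3 rose and 1 fell (medians, 0.11 and -0.18). Ndrg1 rose by 1.71 and 1.84 (adjusted p = 9.79e-09 and 9.61e-09, edgeR) and Selenow by 0.76 and 0.73 (adjusted p = 3.72e-06 and 1.02e-05). Hspa1b fell by 1.57 and 1.79 on the log2 scale (adjusted p = 0.0185 and 0.0145), with reads that can be shared with its near-identical copy Hspa1a.

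Of 10 genes of copper handling, 3 rose and 1 fell in Nt+/+ mice and 4 rose and 1 fell in Nt-/- mice (medians, -0.03 and 0.02). The highest was Sod1, the copper-zinc superoxide dismutase, at 0.86 and 1.00 (adjusted p = 3.87e-08 and 1.53e-08, edgeR), and Ccs, its copper chaperone, rose by 0.57 and 0.49 (adjusted p = 3.87e-05 and 0.000259). Of 7 carriers of manganese and other divalent metals 6 were tested, with 0 higher and 2 lower in Nt+/+ and 1 higher and 2 lower in Nt-/- mice (medians, -0.06 and -0.08). Slc40a1, the iron exporter ferroportin, fell by 2.12 and 1.61 on the log2 scale (adjusted p = 1.54e-06 and 5.95e-05).

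Of 9 genes listed for the glucocorticoid response, which include the receptor gene Nr3c1 and the steroid enzyme gene Hsd11b2, 6 rose and 0 fell in each genotype (medians, 0.80 and 0.62). Klf9 was not called, with means of 38.8 CPM fed and 32.54 CPM fasted in Nt+/+ mice. In Nt-/- mice its means were 42.38 and 34.35 CPM. Zbtb16 rose by 5.19 and 5.23 (adjusted p = 2.11e-05 and 2.86e-05, edgeR), Sgk1 by 3.04 and 3.16 (adjusted p = 8.07e-05 and 0.000104) and Fkbp5 by 2.36 in both genotypes (adjusted p = 1.16e-05 and 2.4e-05). Zbtb16 was uneven between mice, at 1.80 to 40.9 CPM in fasted Nt-/- mice. These 3 genes moved with Mt1 and Mt2, and their part in the metallothionein result was not tested. Of 9 zinc-dependent enzymes, most of them of the brush border, 7 rose and 0 fell in each genotype (medians, 0.74 and 0.92), among them the aminopeptidase gene Enpep by 1.00 and 1.20 (adjusted p = 0.00024 and 7.04e-05).

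Cell type markers moved with the fast as well. Of 9 enterocyte markers 7 rose in Nt+/+ and 9 in Nt-/- mice and none fell, with Fabp1 at 2.09 and 2.05 (adjusted p = 3.8e-06 and 9.4e-06, edgeR). The 9 summed to a median of 6768 CPM in fed and 13840 CPM in fasted Nt+/+ mice, and to 7176 and 18600 CPM in Nt-/- mice. The part of the enterocyte markers in the changes of the members was not tested.

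Proliferation markers fell in 4 of 5 genes in Nt+/+ and 5 of 5 in Nt-/- mice, and stem cell markers in 1 and 2 of 5. No stem cell marker was called higher. In Nt+/+ mice the means of Lgr5 and Ascl2 were higher after the fast, at 33.8 against 27.6 CPM and 8.22 against 5.32 CPM. Those of Olfm4, Smoc2 and Slc12a2 were lower. Of 7 Paneth cell markers 1 fell in each genotype, Mptx2, by 1.15 and 1.75 on the log2 scale (adjusted p = 0.00932 and 0.000473, edgeR). Of 6 goblet cell markers 1 rose in each genotype, and 2 fell in Nt+/+ and 3 in Nt-/- mice. Of 6 enteroendocrine markers 1 rose, and of 9 immune markers 1 fell, in each genotype, and none of the 4 tuft, 6 stromal, 5 erythroid and 1 pancreatic acinar markers that could be tested was called in edgeR. The acinar genes Prss1, Pnlip and Amy2a5 were at 0 in all 19 mice.

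The members differed in the genes they resembled most. After subtraction of each group's mean, over the 19 mice, the gene closest to Mt1 among all 17875 was Mt2 (Pearson's r = 0.864), followed by Slc25a37 (0.843) and Gm28043 (0.827), and the gene closest to Mt2 was Mt1, followed by Trpm6 (0.843) and Zbtb25 (0.840). Slc30a10 was closest to its overlapping partner Gm2061 (0.920), then to Gm47218 (0.874) and Dnm1 (0.863). Reads of Slc30a10 and Gm2061 may be shared, as the strand setting is not given. Among the members Slc30a10 went with Slc30a1 (0.789) and Slc39a14 (0.769). For Slc30a1 the 3 closest were Foxj3 (0.865), Glt28d2 (0.859) and Luzp1 (0.854).

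Each importer had other neighbours. Slc39a4 was closest to Cmtm6 (r = 0.842), Gpa33 (0.838) and Mgat1 (0.838), Slc39a5 to Ctsa (0.876), Selenbp1 (0.872) and Akr7a5 (0.868), and Slc39a14 to Gm10499 (0.908), Cubn (0.893) and Acbd4 (0.892). Slc39a4 and Slc39a5 shared an r of 0.619, and Slc39a4 and Mt1 an r of -0.498. These values describe 19 mice that differ in depth and crypt makeup, and each named gene was picked from 17875.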

How the data were processed

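The authors sequenced ribosomal RNA-depleted crypt libraries as single-end reads, trimmed them with Trimmomatic 0.39 and ran RSEM on Ensembl transcripts of GRCm38. They deposited, per gene and mouse, RSEM's expected count, not normalized, and TPM, scaled by the authors to transcript length and library total. The RSEM version and the strand setting are not given in the sources used here.

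Groups came from the sample titles; 1 mouse whose genotype label differs from its title was also run the other way. Replicates are separate mice. The expected counts were rounded, and 17875 of 55487 genes passed filterByExpr in edgeR 4.0.16 (R 4.3.3). The fit used TMM normalization, 1 coefficient for each of the 4 groups, 15 residual degrees of freedom and the quasi-likelihood test of edgeR. P-values were adjusted by Benjamini and Hochberg's method over all genes tested, with a threshold of 0.05. The common dispersion was 0.0357. SE was obtained from the F statistic and the log2 fold change. CPM uses TMM library sizes. At the shallowest depth of 9059457 counts, 10 counts are close to 1 CPM, so low values rest on few reads. DESeq2 1.42.0 was an alternative, beside upper-quartile scaling, other filters, a likelihood ratio test, sex as a covariate, blocks by replicate number and leaving out each mouse. Permutation tests are 2-sided and used SciPy 1.17.1, exact for 9 mice or fewer and with 100000 draws for correlations over 10 mice. Genes were placed with GENCODE M21. The fit was tested on simulated data.

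The members and all gene lists were chosen with earlier results of these data known. All 8 members are described; of the other lists, up to 3 called genes per comparison with the largest changes could be named, along with the 3 genes closest to each called member. The ratio of Mt2 to Mt1, the genes overlapping a member, the values within sample sets, and the fit without both shallow mice were added after seeing the data.

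Same-numbered mice of different groups deviated together: the mean correlation of their deviations was 0.227 by the set number in the file names and 0.184 by the number in the titles, against -0.056 and -0.046 for mice with different numbers. By file-name number it was over 0.1 for every pair of mice in each comparison made, which was taken to pair them. The main fit and the permutation tests did not use this pairing. With the set number as a block, 5484 of 17875 genes were called with fasting in Nt+/+ mice and 5672 in Nt-/- mice. The main fit called 3862 and 4499. Of the 8 members, 5 and 6 were called with the block.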

Additional observations from a re-analysis of the deposited data

How the results depend on the processing

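The number of members called was 5 in Nt+/+ mice (5 to 6 when each mouse was left out in turn) and 7 in Nt-/- mice (5 to 7), and 0 between genotypes, in the interaction and between sexes under every alternative run. Mt1, Mt2, Slc39a4 and Slc39a14 were called with fasting in both genotypes under all 31 alternatives, and Slc30a10 in Nt-/- mice. The alternative with Mt1 and Mt2 summed tested only their sum, whose call was counted for both genes. With a replicate block on the set number in the file names, Slc30a1 in fasted Nt-/- mice was 0.52 and lost its call; neither block changed another member's call.

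Among differences that were not called, these changed sign. With the replicate block by title number, Slc30a10 between fed genotypes was -0.079, and with the block by file-name number Mt1 was 0.082. With fasted Nt+/+ replicate 5 grouped as Nt-/- the interaction of Mt2 was -0.047. With Mt1 and Mt2 summed the fed genotype difference was -0.001. With both shallow fasted Nt-/- mice left out, Mtf1 with fasting in Nt-/- mice was -0.005. Leaving out each mouse gave -0.061 to 0.042 for Mtf1 with fasting in Nt+/+ mice, and, between fed genotypes, -0.287 to 0.084 for Mt1, -0.489 to 0.55 for Mt2, -0.149 to 0.019 for Slc30a1 and -0.096 to 0.204 for Slc30a10, and -0.197 to 0.842 for the interaction of Mt2. The cause was not tested.

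Over all genes, counts called moved by more than 1.5 times between fed genotypes from 1 to 3 (DESeq2), 3 (likelihood ratio test), 0 (at least 10 counts in every mouse) and 0 (replicate 5 regrouped), and between fasted genotypes from 1 to 101, 41, 0 and 0 in the same order, and to 4 without fasted Nt-/- replicate 1. The interaction went from 0 to 1 with the likelihood ratio test, and the sex comparison from 14 to 99 with DESeq2, 5 with the stricter filter and 24 without fasted Nt-/- replicate 1. The low fed counts of Mt2 limit the precision of its ratios.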
